A study of Mus musculus with 4 samples.

Results

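The genes of the receptor-activated Smads (Smad1, Smad2, Smad3, Smad5 and Smad9) and of the common Smad (Smad4) were followed through the open chromatin of a mouse gonadotrope cell line. Members were the called peaks to which the authors' annotation gave one of these 6 gene names, or whose annotated exon, intron, promoter or gene end belonged to one of them. In the lists of the 4 libraries there were 54, 105, 50 and 46 such peaks (vehicle libraries 1 and 2, then activin libraries 1 and 2). Merged where they overlapped by at least 1 bp, they made 137 regions of 255101 in the whole series. Smad2 had 62 of these regions, Smad3 35, Smad4 19, Smad9 9, Smad1 7 and Smad5 5. A start-site region was present in all 4 libraries for each of the 6 genes. None of the 12 Smad regions that could be tested differed between activin and vehicle after adjustment. Nor did any of the 13871 regions tested in the whole series.

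Smad proteins carry the signal of TGFβ family receptors to the nucleus. Activin and TGFβ receptors phosphorylate SMAD2 and SMAD3, bone morphogenetic protein receptors phosphorylate SMAD1, SMAD5 and SMAD9, and the phosphorylated proteins assemble with SMAD4, the partner that both branches share. The complexes bind DNA with other transcription factors, and in gonadotropes activin acts through them on Fshb, which encodes the β subunit of follicle-stimulating hormone.

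The cells were LβT2 (named LβT2b in the culture protocol), an established line. All of them spent a night without serum before treatment, which lasted 6 h. The treatment was vehicle in 2 libraries and activin A at 1 nM in the other 2; activin A is itself a ligand of the TGFβ family. Open DNA was tagged by a transposase and sequenced (ATAC-seq). The labels do not say whether libraries of a treatment came from separate cultures, so the p-values measure only the spread between these libraries.

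Depth ranged from 172146474 to 224226184 high-quality autosomal reads per library. Enrichment at start sites was 2.48 to 2.72 under vehicle, against 3.04 to 3.12 under activin, and vehicle library 2 had 178358 peaks against 70692 to 85112 in the others. The part of these differences in the results below was not tested. Of 10 gonadotrope marker genes, 7 were marked in all 4 libraries by a peak whose centre lay no more than 1 kb from the start (among them Lhb, Cga, Gnrhr and Nr5a1), whereas Fshb itself had none. Prl, Pou1f1 and Tshb, markers of other pituitary cells, and Ptprc and Col1a1, of blood cells and fibroblasts, had none either; Drd2, Crhr1, Sox9 and Kdr, from those same lists, had one in all 4 libraries.

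The DNA just upstream of the start sites is shown first for the genes whose promoters can be compared in the RefSeq table (GRCm38.p6). Each window is the 250 bases before a start site in that table, written 5′ to 3′ on the gene's own strand. Smad1 is at chr8:79399429-79399678 (reverse strand), Smad3 at chr9:63757995-63758244 (reverse), Smad5 at chr13:56702760-56703009 (forward) and Smad9 at chr3:54755332-54755581 (forward). For Smad9 the start site in the table, 54755582, lies inside the gene, downstream of the 5′ end at 54755455 from which distances are counted. Of its window 127 bases therefore lie after that 5′ end, and only the 123 before it (chr3:54755332-54755454) are printed. Capitals mark AGAC or its reverse complement GTCT, the core of the Smad binding element. GGCGCC, a GC-rich palindrome that Smad proteins also bind, was searched too.
Smad1: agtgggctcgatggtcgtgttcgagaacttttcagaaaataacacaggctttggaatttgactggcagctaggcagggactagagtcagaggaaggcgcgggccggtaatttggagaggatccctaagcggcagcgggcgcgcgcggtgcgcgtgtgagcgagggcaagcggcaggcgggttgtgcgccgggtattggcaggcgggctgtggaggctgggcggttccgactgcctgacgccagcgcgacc
Smad3: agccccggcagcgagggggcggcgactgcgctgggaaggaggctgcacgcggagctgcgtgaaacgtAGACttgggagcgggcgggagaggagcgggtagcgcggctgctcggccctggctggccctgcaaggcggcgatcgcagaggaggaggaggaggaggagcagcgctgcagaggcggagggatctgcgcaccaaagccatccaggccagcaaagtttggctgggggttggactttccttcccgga
Smad5: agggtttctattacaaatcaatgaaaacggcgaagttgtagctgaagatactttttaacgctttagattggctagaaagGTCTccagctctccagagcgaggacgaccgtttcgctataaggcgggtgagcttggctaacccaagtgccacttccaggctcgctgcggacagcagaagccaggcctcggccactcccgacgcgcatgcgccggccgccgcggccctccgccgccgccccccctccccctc
Smad9: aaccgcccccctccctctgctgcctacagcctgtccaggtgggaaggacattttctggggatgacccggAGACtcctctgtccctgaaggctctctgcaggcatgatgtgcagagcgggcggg
The windows of Smad3, Smad5 and Smad9 each held 1 AGAC or GTCT, and that of Smad1 held 0. Among 32851 RefSeq promoter windows of the same length, 82.9% held at least 1. GGCGCC occurred once, in the unprinted bases of the Smad9 window, and in 9.59% of all windows. The palindrome GTCTAGAC occurred in none of the 4 and in 0.167% of all windows. All 4 windows were richer in CpG than most, with 25 CpG in Smad1, 24 in Smad9 and 22 in both Smad3 and Smad5 against a median of 6. Their GC content was 60.0% (Smad5) to 73.2% (Smad9), against a median of 52.4%. The called peaks covered all 250 bases in every library at Smad3, Smad5 and Smad9. At Smad1 the peaks reached only 57 to 104 bases into the window. These matches describe letters, not bound sites.

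The start-site regions were compared first, since they are where accessibility is usually highest at an expressed gene. A start site is the RefSeq 5′ end of the gene. Of 16457 autosomal protein-coding genes with a strand in the RefSeq promoter table, 46.2% had the 5′ end inside a region with a peak in all 4 libraries. All 6 Smad genes did, 4 of which are in that table. Levels are given as density, the high-quality reads in the called peak, divided by its length in kb and by the high-quality reads of the library, times 1000000. Strength is given as the −log10 q of the peak, which is the authors' value and also depends on the depth and background of its library.

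Smad2, a direct target of activin receptors, had the most accessible start site (chromosome 18, 76240935 to 76242468, annotated as promoter). Its density was 7.36 and 5.97 under vehicle, against 8.43 and 8.28 under activin. That put it at the 95.1 to 96.3 percentile of 6410 promoter regions in every library. The −log10 q was 40.7 and 35.2 under vehicle, against 53.6 and 42.0 under activin, higher in both activin libraries.

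Smad3, the other Smad of the activin branch, followed (chromosome 9, 63757357 to 63758547, promoter). Its density was 5.25 and 5.33 under vehicle, against 6.26 and 5.86 under activin, and the groups did not overlap. The −log10 q was 23.1 and 20.9 against 29.0 and 24.8. Among those 6410 promoter regions it lay between the 84.2 and the 91.6 percentile.

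Smad4, the common partner, was next (chromosome 18, 73703011 to 73704345). The authors' annotation placed its strongest peak there in exon 1 of 12 of Smad4 while giving the gene name Elac1. Density was 4.36 and 4.20 under vehicle, against 5.00 and 5.01 under activin, the 71.7 to 80.2 percentile of those promoter regions. The −log10 q overlapped between treatments, at 14.3 and 17.9 against 24.9 and 16.7.

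The Smads of the bone morphogenetic protein branch were lower. Smad5 (chromosome 13, 56702532 to 56703771, promoter) had a density of 1.83 and 1.57 under vehicle, against 2.33 and 2.10 under activin, and a −log10 q of 7.37 and 7.06 against 11.6 and 9.71. Both values were higher in both activin libraries. Smad9 (chromosome 3, 54755034 to 54756240, promoter) had 1.99 and 1.23 under vehicle, against 1.44 and 1.11 under activin, with a −log10 q of 2.52 to 3.83 over the 4 libraries. Smad1 (chromosome 8, 79399230 to 79399532, annotated as exon 1 of 4) had 1.57 and 1.25 under vehicle, against 1.40 and 1.58 under activin. Its −log10 q, 1.70 to 2.21, was the lowest of the 6, and the treatments overlapped at both Smad9 and Smad1. In each library these 3 start sites lay at or below the 13.9 percentile of those 6410 promoter regions, all of them called in all 4 libraries. Ranked by −log10 q among all called peaks of a library, Smad5 lay at the 87.09 to 94.85 percentile. By the same rank Smad9 lay at 63.39 to 85.69 and Smad1 at 55.55 to 69.97.

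The order Smad2, Smad3, Smad4 held in each of the 4 libraries, and Smad5, Smad9 and Smad1 lay below them in each. The lowest Smad4 value, 4.20, was above the highest value of those 3, 2.33. Among Smad5, Smad9 and Smad1 the order changed from library to library, and their values overlapped. Smad2 and Smad3 overlapped when libraries were pooled (lowest Smad2 5.97, highest Smad3 6.26), although Smad2 was higher within every library.

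**Figure D1:**
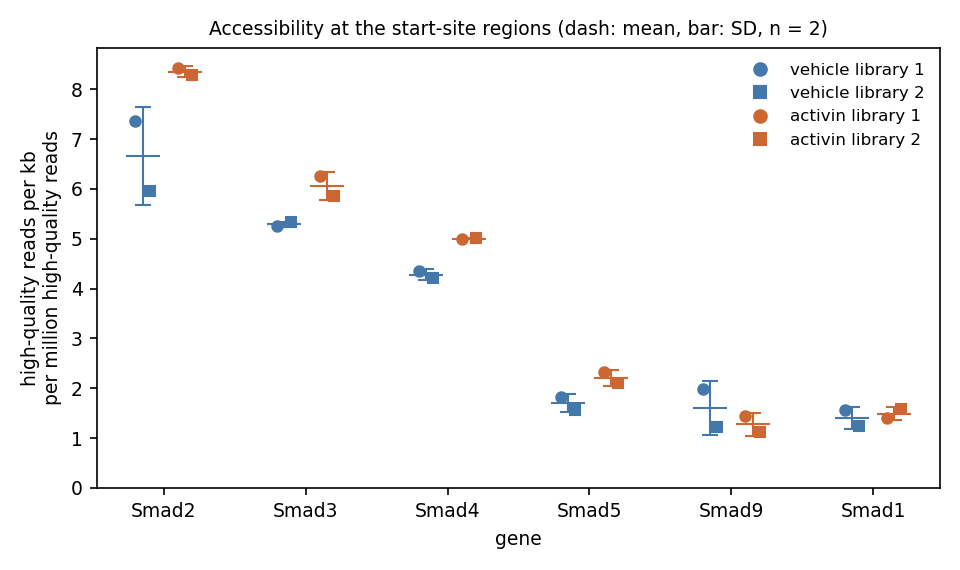
Density at the start-site region of each Smad gene, as reads per kb of peak and per 1000000 reads of the library, high-quality reads only. Points are libraries, dashes the means of 2 libraries and bars their SD. Smad2, Smad3 and Smad4 lie at 4.20 to 8.43 and Smad5, Smad9 and Smad1 at 1.11 to 2.33.

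Whether activin changed these levels was tested over 13871 regions of the whole series with exactly 1 peak per library, at which at least 50% of the merged interval lay inside all 4 peaks. Values were the log2 of (reads + 1) per kb, less the median of the library, and the test was limma, with Benjamini-Hochberg adjustment over all of these regions. No region of the series passed an adjusted p of 0.05 (0.0% higher and 0.0% lower). Without adjustment, p was under 0.05 at 502 that were higher (3.62%) and 820 lower (5.91%). Of the 137 Smad regions 12 met the rule for the test. Among them 0 passed after adjustment, and an unadjusted p under 0.05 was found for 0 higher and 1 lower.

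At the start sites the estimated changes were small against their errors. Smad2 had 6.66 ± 0.988 with vehicle and 8.36 ± 0.107 with activin (density, SD, n = 2). Its log2 change, set against the rest of the tested regions, was 0.06 ± 0.10 (SE; 95% interval −0.16 to 0.28; limma adjusted p = 0.869). Smad3 had 5.29 ± 0.0545 and 6.06 ± 0.284 (SD, n = 2), a log2 change of −0.08 ± 0.10 (−0.31 to 0.15; limma adjusted p = 0.822). Smad4 had 4.28 ± 0.109 and 5.00 ± 0.00354 (SD, n = 2), a log2 change of −0.05 ± 0.10 (−0.27 to 0.17; limma adjusted p = 0.900).

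The density of these 3 start sites was thus higher in both activin libraries, while the change relative to other regions was near 0. With all high-quality reads as the scale, the median shared region was higher with activin by 0.27 on the log2 scale. On that scale 3.99% of all regions passed as higher and 0.375% as lower after adjustment, and of the 12 Smad regions 0 did. An unadjusted p under 0.05 was found for 2 higher Smad regions, the Smad5 start site and a region upstream of Smad2 described below (31.4% of all regions), and for 0 lower (1.47%). The log2 changes were 0.33 for Smad2, 0.19 for Smad3 and 0.23 for Smad4 (limma adjusted p = 0.193, 0.371 and 0.281). Those 3 start sites therefore stayed on the same side of the threshold under both scalings, but Smad3 and Smad4 changed sign.

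Smad5 had a log2 change of 0.11 ± 0.14 (SE; 95% interval −0.20 to 0.42; limma adjusted p = 0.821), from 1.70 ± 0.184 with vehicle and 2.21 ± 0.161 with activin (density, SD, n = 2). Smad1 had −0.19 ± 0.17 (−0.58 to 0.21; limma adjusted p = 0.75), from 1.41 ± 0.223 and 1.49 ± 0.126. Smad1 rested on 66 to 88 reads per library, against 1759 to 2900 at Smad2. The Smad9 start site did not enter this test, because the called intervals ran from 523 to 1207 bp and their common part was 43.3% of the union. In a fit of all autosomal regions with a peak in each library, whatever their overlap, its log2 change was −0.47 (95% interval −1.10 to 0.15; limma adjusted p = 0.573).

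**Figure D2:**
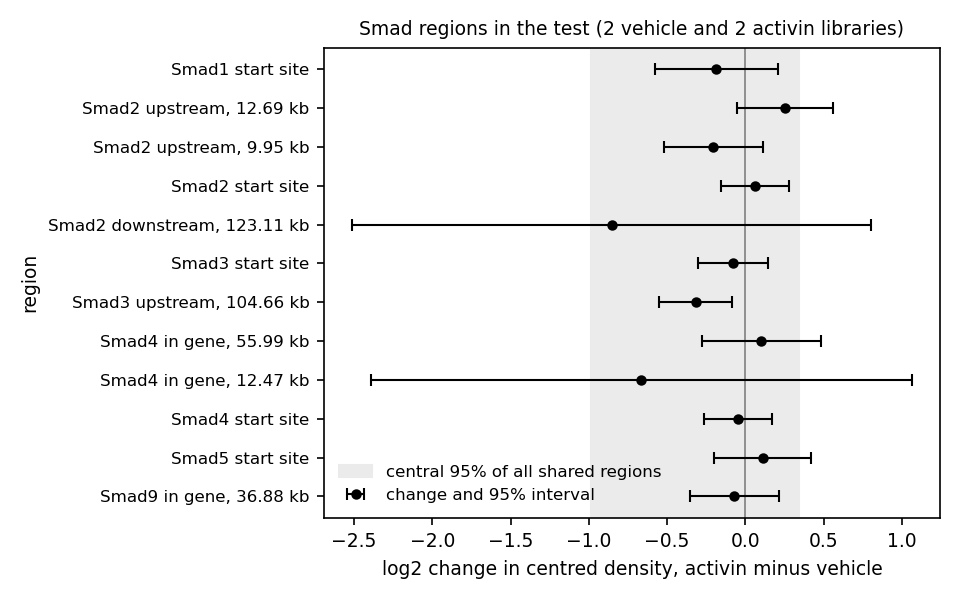
Log2 change in centred density, activin minus vehicle, for the 12 Smad regions in the test, with 95% intervals from limma; the grey band holds the central 95% of all 13871 regions (−0.99 to 0.34). The intervals of the start sites all include 0, and those of the 2 regions with few reads (Smad4 in gene, 12.47 kb; Smad2 downstream, 123.11 kb) are the widest.

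The 12 Smad regions had a median log2 change of −0.08 (4 above 0 and 8 below), against −0.0049 over all 13871 regions. After centring, the activin values were both above the vehicle values in 2 of the 12 (20.9% of all regions in the test did so) and both below in 3 (20.5%). For each start site in the test, the promoter region outside the Smad genes with the closest values over the 4 libraries was looked up among 6407. The measure was the Euclidean distance of the log2 densities centred on the library median, so it matches level as well as change. The closest was the promoter of Tfeb for Smad2 (distance 0.0493), Mir1900 for Smad3 (0.0693), Nars2 for Smad4 (0.0572), Bnip2 for Smad5 (0.0412) and Gm9828 for Smad1 (0.114).

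Peak strength was examined next, over the regions with a peak in all libraries, of which the Smad genes had 23 of 137, or 16.8% (11.7% of all regions had one). They were the 6 start sites, 8 regions elsewhere in the genes, 6 upstream and 3 downstream. At 14 of the 23 neither activin library had a −log10 q as low as either vehicle library. Over the 29896 such regions of the series this share was 56.8%. The reverse held at 2 of 23 (5.44% in the series). Density separated the treatments at 10 of the 23 with activin higher (41.0% in the series) and at 1 with activin lower (8.7%). The Smad regions were thus close to the background.

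**Figure D3:**
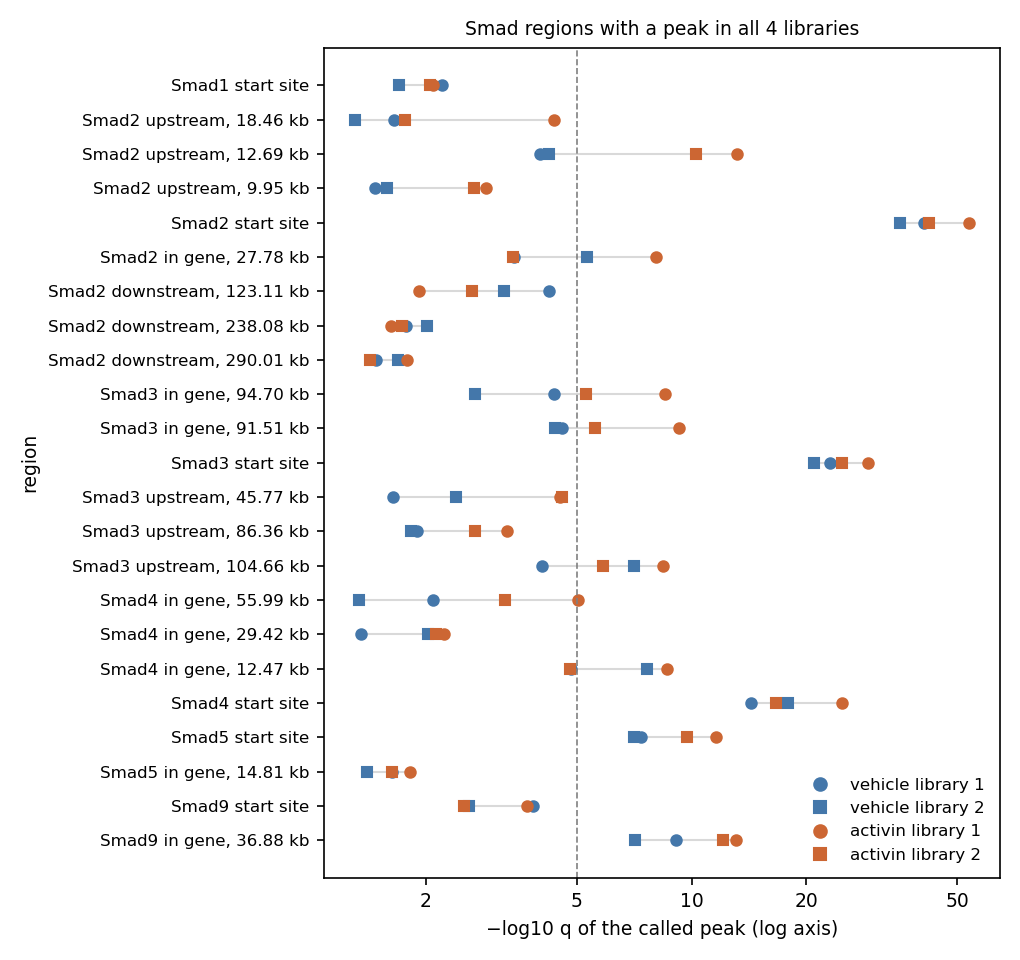
The −log10 q of the called peak (log axis) in each library, for the 23 Smad regions with a peak in all 4 libraries; distances are from the RefSeq start site and the dashed line marks 5. Activin libraries lie to the right of both vehicle libraries in 14 regions, the start sites of Smad2, Smad3 and Smad5 among them, and to the left in 2.

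A −log10 q of at least 5 in both activin libraries and in neither vehicle library was found at 3 of the 23 regions (7.9% of the series), 1 upstream of Smad2 and 2 inside Smad3. The reverse was found at 0 (0.241%).

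The Smad2 region lay 12.69 kb upstream of the start site (chromosome 18, 76227973 to 76228825, intergenic). Its −log10 q was 3.99 and 4.21 under vehicle, against 13.1 and 10.3 under activin. Density was 2.48 and 1.78 under vehicle, against 3.19 and 2.88 under activin, so the treatments did not overlap in either measure.

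It held 221 and 323 reads under vehicle, against 357 and 270 under activin. The log2 change relative to other regions was 0.25 ± 0.14 (SE; 95% interval −0.06 to 0.56; limma unadjusted p = 0.0966, adjusted p = 0.583). It was 0.53 on the scale of all high-quality reads (adjusted p = 0.0580) and −0.24 without division by interval length (adjusted p = 0.689). The called interval was 517 and 820 bp with vehicle and 499 and 527 bp with activin. Without vehicle library 2, which had the longest interval, the log2 change was 0.10 (limma adjusted p = 0.893), and without vehicle library 1 it was 0.41 (adjusted p = 0.316).

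Other regions upstream of Smad2 lay at 9.95 kb (76230883 to 76231398) and 18.46 kb (76222309 to 76222952). At 9.95 kb the −log10 q was 1.47 and 1.59 against 2.89 and 2.68, but the log2 change in density was −0.20 ± 0.14 (SE; limma adjusted p = 0.657). At 18.46 kb the called intervals shared 5.12% of their union, and density was lower in both activin libraries (2.14 and 2.16 against 1.91 and 1.56). These densities are therefore mostly of different stretches of DNA.

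Inside Smad2, the region 27.78 kb from the start site, in intron 1 of 4 (76268642 to 76269091), had the strongest intronic peak of the gene, with a −log10 q of 3.41 and 5.31 under vehicle, against 8.06 and 3.40 under activin. Its density, 0.550 to 0.854, overlapped between treatments.

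Most Smad2 regions lay outside the gene. There were 37 downstream, as far as 307.6 kb, assigned to Smad2 because the authors' annotation gives a peak the nearest start site. Of all 62 Smad2 regions, 35 were called in 1 library alone and 23 of these in vehicle library 2. Over all 6 genes 78 of 137 regions were called in 1 library alone, 50 of these in vehicle library 2. That library had the longest list, 178358 peaks, and the share of such regions in the whole series is not given here. The region 123.11 kb downstream of the start site (76363708 to 76364691) was weaker in both activin libraries by −log10 q (4.23 and 3.22 against 1.93 and 2.66). It held only 9 and 5 high-quality reads under vehicle, against 9 and 2 under activin, and its log2 change, −0.85 ± 0.73 (SE), had an adjusted p of 0.726 in limma. That value ranged from −1.55 without activin library 1 to −0.16 without activin library 2. The region 137.82 kb downstream (76378818 to 76378999) reached a −log10 q of 5.58 in activin library 2, with 3.26 and 3.27 in vehicle library 1 and activin library 1 and no peak in vehicle library 2.

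At Smad3, both regions that passed a −log10 q of 5 only in the activin libraries were near the far end of the gene. The region 91.51 kb from the start site (chromosome 9, 63666140 to 63666829) was annotated as a promoter of Smad3, that is, at an internal start site of the authors' gene models. Its −log10 q was 4.57 and 4.39 under vehicle, against 9.28 and 5.56 under activin. Density was 3.66 and 4.93 against 4.35 and 3.94, which overlapped.

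The region 94.7 kb from the start site, in intron 5 of 6 (63662454 to 63664130), had a −log10 q of 4.34 and 2.70 against 8.51 and 5.29. Its density was 3.38 and 2.99 against 3.69 and 3.12, again overlapping. In the fit of all regions with a peak in each library, the log2 changes were −0.20 (95% interval −0.67 to 0.26; limma adjusted p = 0.742) at the internal start site and −0.08 (−0.39 to 0.24; limma adjusted p = 0.869) in intron 5. The higher −log10 q was thus not matched by density, but the called intervals differed. At the internal start site they were 484 and 289 bp under vehicle, against 673 and 476 bp under activin. In intron 5 they were 519 and 1171 bp against 1351 and 1611 bp. The common parts were 39.1% and 30.9% of the unions, so the densities are partly of different stretches of DNA.

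Upstream of Smad3, the strongest region lay 104.66 kb away (63862534 to 63862782, intergenic). Its −log10 q was 4.06 and 7.06 under vehicle, against 8.39 and 5.87 under activin, with overlap. Its density, 4.89 and 4.32 under vehicle, against 4.26 and 4.67 under activin, was close to that of the Smad4 start site, in an interval of 152 to 249 bp. Relative to other regions the log2 change was −0.32 ± 0.10 (SE; 95% interval −0.55 to −0.09; limma unadjusted p = 0.0127, adjusted p = 0.429). This was the 1 Smad region under an unadjusted p of 0.05, and it did not pass. On the scale of all high-quality reads its log2 change was −0.04.

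At 45.77 kb upstream (63803224 to 63804304) density was 1.68 and 2.61 under vehicle, against 3.05 and 3.75 under activin, and at 86.36 kb (63843544 to 63845157) it was 1.90 and 2.14 against 2.63 and 3.29. Activin libraries were higher in density and −log10 q at both. The called intervals were 1013 and 305 bp under vehicle, against 369 and 256 bp under activin, at 45.77 kb, and 1234 and 807 bp against 304 and 203 bp at 86.36 kb. The common parts were 23.2% and 6.2% of the unions. Over regions with a peak in each library the log2 changes were 0.52 (limma adjusted p = 0.557) and 0.38 (adjusted p = 0.552).

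**Figure D4:**
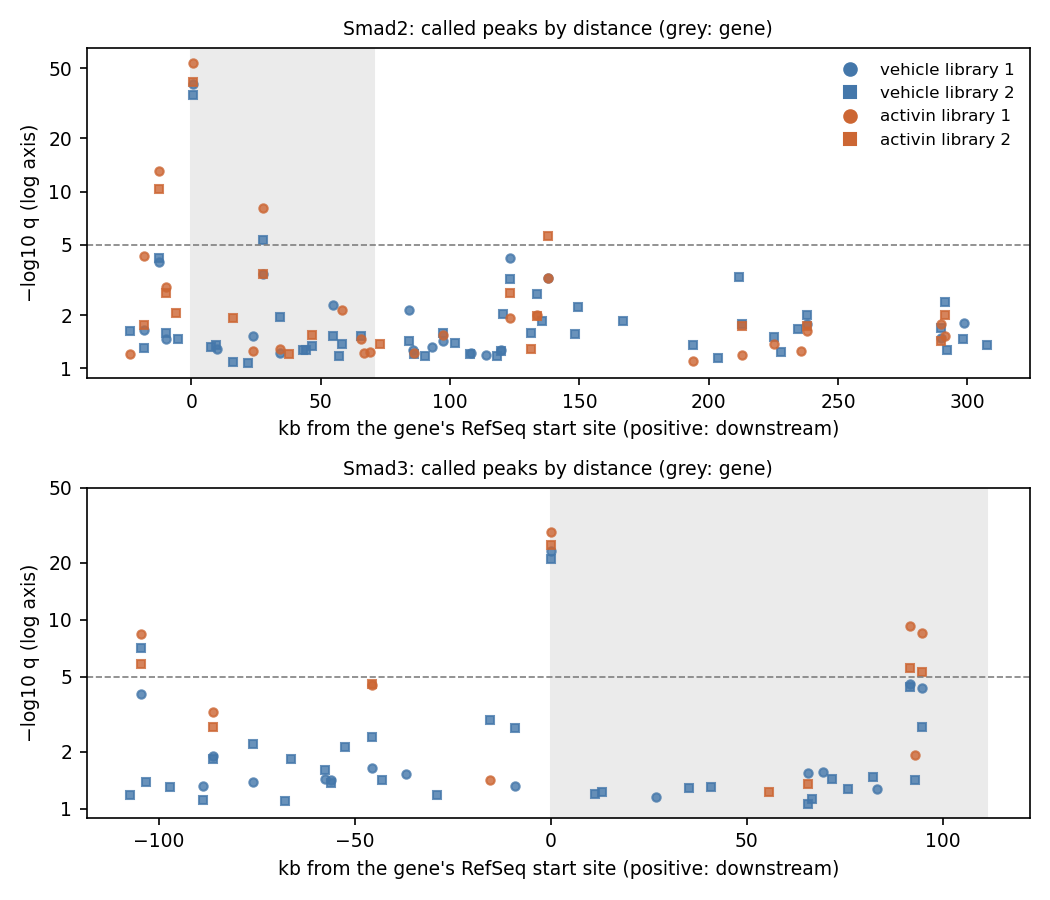
The −log10 q (log axis) of every called peak assigned to Smad2 (top) and Smad3 (bottom) against the distance of its region from the RefSeq start site in kb; grey marks the gene and the dashed line 5. The start-site peaks stand above all others, and most of the remaining peaks lie under 2.

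In Smad4 the intronic regions were weak or held few reads. The region 55.99 kb from the start site, in intron 2 of 3 (chromosome 18, 73647523 to 73648080), had a −log10 q of 2.09 and 1.34 under vehicle, against 5.04 and 3.24 under activin. Its density was 1.38 and 1.54 against 2.00 and 1.78, higher in both activin libraries, and the log2 change was 0.10 ± 0.17 (SE; limma adjusted p = 0.877). The region 29.42 kb away, in intron 3 of 10 (73674169 to 73674579), had a density of 1.48 to 2.38, with overlap.

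The longest Smad region lay 12.47 kb from the Smad4 start site, in intron 1 of 11 (73689498 to 73693148). Its peaks of 2411 to 3651 bp had a −log10 q of 4.80 to 8.64 but held only 12 to 14 high-quality reads in each library. Of the 13871 regions tested, 3.82% held at most 14 reads in every library. A Smad5 region 14.81 kb from the start site, in intron 1 of 6 (chromosome 13, 56716692 to 56718957), was called in all libraries with a −log10 q of 1.41 to 1.82 and held 0 high-quality reads in each. At these regions a called peak was thus accompanied by few or no high-quality reads, and the reason was not tested.

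At Smad9 the most open region was not the start site. The region 36.88 kb from its start site, in intron 4 of 5 (chromosome 3, 54791984 to 54792682; the nearest start site in the annotation is that of Rfxap), had a density of 2.16 and 2.06 under vehicle, against 2.53 and 2.33 under activin. That was above the Smad9 start site in 4 of 4 libraries. The −log10 q was 9.10 and 7.11 against 13.1 and 12.1, higher in both activin libraries. Relative to other regions the log2 change was −0.07 ± 0.13 (SE; 95% interval −0.35 to 0.21; limma adjusted p = 0.886). In each of the other 5 genes the start site had the highest −log10 q of the gene's regions in every library. By density this did not hold at Smad1 in vehicle library 2. There a region 8.68 kb from the start site, called in that library alone, had 1.77 against 1.25 at the start site.

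Regions restricted to a treatment were few or weak. Of the 137 regions 1 had a peak in both activin libraries and in neither vehicle library (1.35% of the series), in intron 1 of 11 of Smad4, 3.2 kb from the start site (73700374 to 73700800; −log10 q 2.32 and 1.79). The reverse held for 10 (4.86% of the series). Of these, 5 lay upstream of Smad3, at 9.26, 56.0, 57.58, 75.95 and 88.85 kb, and 3 belonged to Smad2, at 54.86 kb in intron 4 of 5 and at 84.2 and 119.88 kb downstream. The remaining regions were in Smad4 (51.54 kb, intron 4 of 7) and at an annotated internal promoter of Smad5 (29.03 kb; 56731913 to 56732172). The highest −log10 q among the 10 was 2.66. Regions shared by just 1 vehicle and 1 activin library numbered 2 and 0 for the pairs with vehicle library 1, and 8 and 5 for those with vehicle library 2. The same pairs held 0.943%, 0.552%, 4.26% and 2.7% of all regions of the series.

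The number of peaks followed the lists. The 6 genes had 79.5 ± 36.1 peaks under vehicle, against 48.0 ± 2.83 under activin (SD, n = 2; the exact permutation test, 2-sided, gave p = 0.33, which no design of 2 against 2 can go below). The difference of −31.5 was −6 without vehicle library 2. When each list was shortened to its 70692 strongest peaks, the numbers were 49 and 40 under vehicle, against 40 and 46 under activin. With a −log10 q of at least 5 they were 5 and 8 against 12 and 10, a difference of 4.5 in the other direction (exact permutation p = 0.33). That was 9.26% and 7.62% of the Smad peaks under vehicle, against 24.0% and 21.7% under activin. Over the whole lists the share was 14.9% and 7.15% against 23.3% and 22.4%.

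Weak peaks were a smaller share at Smad3 in the activin libraries, a pattern chosen after its values were seen. Smad3 had 16 and 30 peaks in the vehicle libraries and 8 in each activin library. The share under a −log10 q of 2 was 75% and 70.0% with vehicle and 25.0% in each activin library. In the whole lists this share was 65.6% and 76.8% under vehicle, against 53.6% and 54.4% under activin. At Smad2 it was 66.7% and 79.2% against 70.8% and 57.9%.

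The genes that act around these Smads were read from the same test, from a list of 41. Of these genes 29 had at least 1 tested region, 43 regions in all. After adjustment 0 were higher and 0 lower, and the median log2 change was 0.01. The inhibitory Smads, which oppose the pathway, had log2 changes of 0.05 ± 0.09 at the Smad6 promoter and −0.06 ± 0.10 at the Smad7 promoter (SE; limma adjusted p = 0.882 and 0.888).

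At an unadjusted p under 0.05 there was 1 higher and 1 lower of these 43, where the shares over all tested regions were 3.62% and 5.91%. The first was in intron 4 of 6 of Zbtb16, a zinc finger repressor (chromosome 9, 48710255 to 48711977; 0.25, limma adjusted p = 0.487), and the second an intergenic region 70.9 kb from Ppm1a, a phosphatase of Smads (chromosome 12, 72831831 to 72832339; −0.40, adjusted p = 0.524). The next smallest p among positive changes belonged to an annotated gene end of Acvrl1, a type I receptor (0.19, limma adjusted p = 0.577). Then came a region in intron 1 of 30 of Nedd4l, a ubiquitin ligase (0.17, adjusted p = 0.625). Among negative changes it belonged to a region 9.6 kb from Foxl2, a forkhead partner of Smads (−0.29, limma adjusted p = 0.557). Next was a region in intron 1 of 11 of Bmpr1b, a type I receptor (−0.81 ± 0.42, SE, adjusted p = 0.564). Its density was low, 0.13 to 0.20 over the 4 libraries.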

How the data were processed

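ATAC-seq of 2 vehicle and 2 activin libraries was analysed from the authors' files; groups and replicate numbers come from the sample titles. Bowtie2, MACS2, HOMER and the builds GRCm38 and mm10 are named per the submitters' processing notes, without settings. The authors deposited a list of broad peaks per library, with a whole-number score, a fold enrichment, and the −log10 of the p-value and q-value of each peak; the lowest −log10 q was 1.0. Per the file headers, annotatePeaks.pl of HOMER annotated those peaks. The reads overlapping each autosomal peak are from the authors' ataqv 1.3.1 reports, per the file headers.

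Peaks were merged at 1 bp of overlap. Distances were counted from the RefSeq 5′ end (GRCm38.p6) to the region's centre; the strands of Smad2 and Smad4 were taken from the annotated distances. Densities of regions with 1 peak per library and a common part of at least 50% were tested with limma 3.58.1 (R 4.3.3; trend, pseudocount of 1 read, no block). A log2 change on this scale understates that of regions with few reads. The step was tested on simulated data. A count model was not used because intervals differ between libraries. Single values were compared by exact permutation (scipy 1.17.1). Alternatives were another pseudocount, scaling, read filter, overlap rule, peak threshold, a block, and leaving out each library.

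Named regions were the start sites, those tested, those with a −log10 q of at least 5 in any library and those restricted to a treatment; pathway genes were the 3 smallest p in each direction. Regions in all 4 libraries outside that rule were named after their values were seen. The members and lists were chosen with earlier results of these data known. Sequences are from RefSeq; those of 4 of the 6 genes were used here.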

Additional observations from a re-analysis of the deposited data

How the results depend on the processing

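Over all shared regions, where 0 passed an adjusted p of 0.05 in limma, the count was 1 with a pseudocount of 10 reads, 39 without division by interval length, 605 (553 higher, 52 lower) scaled to all high-quality reads, 2 with a common part of at least 75%, 4 with the replicate block, and 0 to 9 without each library in turn (9 without activin replicate 2). The Smad regions among them numbered 0 in each of these 12 alternatives. The replicate numbers did not pair the libraries (correlation of deviations −0.0252), and the labels do not say what a number shares.

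For single Smad regions 132 alternative values were computed, 16 of them with the opposite sign and none past the threshold (lowest adjusted p 0.0580 in limma). Scaled to all high-quality reads, the log2 change was 0.0881 at the Smad1, 0.19 at the Smad3 and 0.23 at the Smad4 start site, 0.07 at 9.95 kb upstream of Smad2 and 0.20 at 36.88 kb in Smad9. Without division by length it was −0.24 at 12.69 kb upstream of Smad2, 0.12 at the Smad3 start site and −0.15 at 55.99 kb in Smad4. Over any region with a peak of each library it was 0.0271 at the Smad3 and 0.0579 at the Smad4 start site and 0.0357 at 36.88 kb in Smad9. With a common part of at least 75% it was −0.0142 at the Smad2 start site. Leaving out each library gave −0.0036 to 0.12 at the Smad2, −0.18 to 0.0187 at the Smad3 and −0.11 to 0.013 at the Smad4 start site, and −0.0634 to 0.26 at 55.99 kb in Smad4. It also gave, with no change of sign, 0.10 to 0.41 at 12.69 kb upstream and −1.55 to −0.16 at 123.11 kb downstream of Smad2, and −1.12 to −0.20 at 12.47 kb in Smad4. The cause of these sign changes was not tested.

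The difference in Smad peak numbers, −31.5, was −1.5 with a −log10 q of at least 2, 4.5 with at least 5, −1.5 with equal numbers of peaks, and −57 to −6 without each library. Smad regions in all libraries, 23, numbered 12 with a −log10 q of at least 2 and 5 with at least 5. Activin-restricted regions, 1 of 137, numbered 2 of 40 at 2, 3 of 13 at 5 and 2 of 90 with equal numbers. Vehicle-restricted regions, 10 of 137, numbered 1 of 40, 0 of 13 and 4 of 90. Without each library they numbered 2 to 9 (activin) and 12 to 60 (vehicle). In the whole lists a −log10 q of at least 5 was held by 14.9% and 7.15% of peaks under vehicle, against 23.3% and 22.4% under activin. Stricter thresholds leave fewer peaks and a missing library loosens the rule, but the part of either in these counts was not tested.

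Smad1, with 66 to 88 reads per library, and regions under about 14 reads limit what can be seen at this depth; the 95% interval of the Smad4 intron region at 12.47 kb ran from −2.39 to 1.06.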
